A study of Mus musculus with 6 samples.

Results

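The genes described are 6 that encode parts of the central pair apparatus of motile cilia and do not carry a Cfap name: Spag6l, Spag17, Spef2, Hydin, Spag16 and Spef1. They were chosen by gene symbol, and all 6 were found among the 22851 genes of the count table. RNA was sequenced from radial glial cells, the neural progenitors of the ventricle wall, taken from the brains of newborn C57BL/6J mice at postnatal days 0 to 3, expanded in medium with serum and then kept without serum for 6 days to form multiciliated ependymal cells. The WT group had 3 libraries from wild-type cells, and the knockout group had 3 libraries from cells of mice in which Edf1 had been disrupted with CRISPR/Cas9. Both groups had the same strain background and the same induction. The labels call the libraries biological replicates and do not say how many animals went into each, nor which part of Edf1 was altered. Edf1, which encodes a transcriptional coactivator that also binds collided ribosomes, had 82.6, 85.9 and 80.2 CPM (counts per 1000000 counts of the library) in the WT libraries and 9.84, 10.9 and 13.2 CPM in the knockout libraries.

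The beating cilia of ependymal cells are built around a ring of outer doublet microtubules with a pair of single microtubules in the middle. The central pair carries projections, made of large proteins, that touch the radial spokes and so pass signals to the dynein motors that bend the cilium. Mice without Hydin or Spag6l develop hydrocephalus, in which fluid accumulates in the brain ventricles. Genes of motile cilia are transcribed under the control of Foxj1 and of RFX factors, which bind a sequence called the X-box.

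The starts of the 6 genes, which changed in the same direction in the knockout, were searched for that sequence as a description. RefSeq (GRCm38.p6) held a window from 250 bases before to 50 bases after the start for each of the 6 genes. The X-box was searched on both strands as GTNNCC and then NGNAAC with 1, 2 or 3 bases of any kind between them, the RFX half-site, which can lie inside it, as GTTGCC, and a forkhead motif, the type bound by Foxj1, as TGTTTAC. An X-box match was present in 5 of the 6 windows, all but that of Spef1, and in 4.37% of the 32851 windows of all genes. The half-site was present in 4 of the 6, those of Hydin, Spag16, Spag6l and Spef2, and in 12.5% of all windows. The forkhead letters were in 0 of the 6 windows and in 3.65% of all windows. A match describes these letters only. Its share among other genes of motile cilia was not computed, and its part in the change in the knockout was not tested. For Spef1 the RefSeq start lies 12472 bases inside the GENCODE M21 locus, whose outer start belongs to 1 of its 3 transcripts, so the sequence before that outer start was not searched. For the other 5 genes the RefSeq start lies 0 to 93 bases inside the locus. The 250 bases before the start are printed for Spag17, the gene that fell most, and for Hydin and Spag16, which have the match closest before the start and the match with a second half-site beside it. Each is 5′ to 3′ in the direction of transcription, with X-box and half-site matches in capitals, and all lie on the plus strand, at chr3:99885167-99885416 for Spag17, chr8:110266727-110266976 for Hydin and chr1:69826720-69826969 for Spag16.
Spag17: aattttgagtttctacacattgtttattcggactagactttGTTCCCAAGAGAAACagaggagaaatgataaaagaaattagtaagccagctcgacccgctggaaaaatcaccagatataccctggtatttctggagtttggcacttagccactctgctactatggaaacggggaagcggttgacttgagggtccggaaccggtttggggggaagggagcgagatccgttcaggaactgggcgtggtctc
Hydin: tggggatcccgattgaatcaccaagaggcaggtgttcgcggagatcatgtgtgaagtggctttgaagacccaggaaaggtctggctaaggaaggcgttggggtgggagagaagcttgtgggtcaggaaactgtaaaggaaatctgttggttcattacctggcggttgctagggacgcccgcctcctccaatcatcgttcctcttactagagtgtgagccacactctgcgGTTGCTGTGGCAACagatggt
Spag16: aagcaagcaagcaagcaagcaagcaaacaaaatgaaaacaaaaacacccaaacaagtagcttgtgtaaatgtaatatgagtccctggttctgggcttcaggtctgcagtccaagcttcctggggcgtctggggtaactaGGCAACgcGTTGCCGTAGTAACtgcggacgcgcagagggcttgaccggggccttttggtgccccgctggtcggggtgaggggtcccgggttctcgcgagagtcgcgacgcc
Counted from the start, with bases before it negative, the Spag17 match lay at -209 to -195 and held no half-site, the Hydin match at -21 to -8 and the Spag16 match at -103 to -90. In Spag6l and Spef2 the match lay after the start, at bases 35 to 48 and 9 to 23, and read GTTGCCCTGGAGAC and GTTGCCCTGGGCGAC in the direction of transcription. The X-box matches of Hydin, Spag6l and Spef2 fit the pattern on the opposite strand. The map of motif positions shows that the 5 matches do not share a position.

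**Figure D1:**
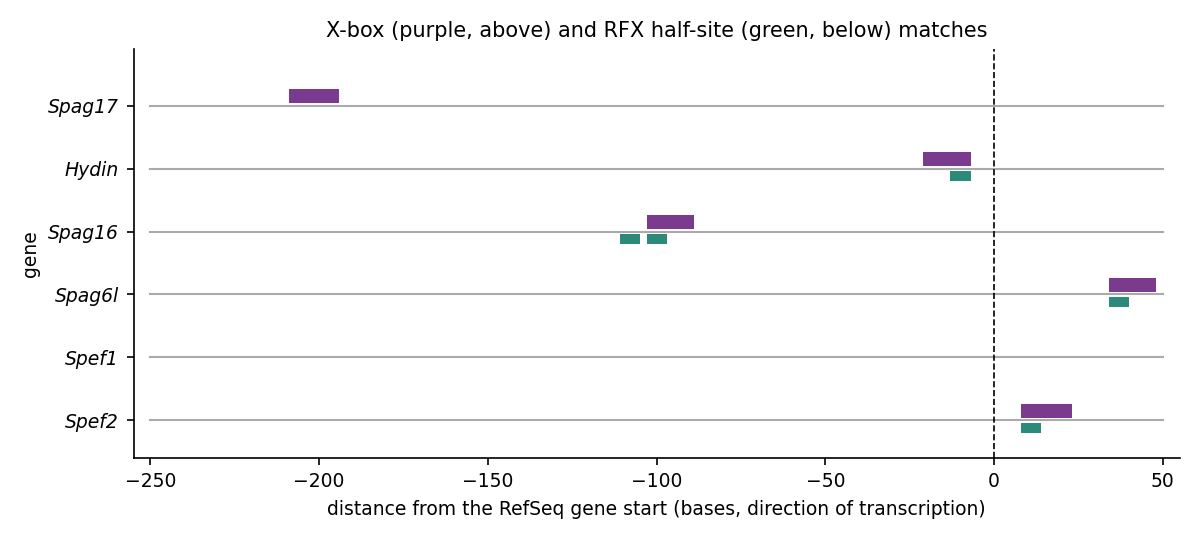
Positions of X-box matches (purple, above each line) and RFX half-site matches (green, below) in the window from 250 bases before to 50 bases after the RefSeq start of each gene. The x axis is the distance from the start in bases. The 3 matches before the start are those of Spag17, Hydin and Spag16, and Spef1 has no X-box or half-site match in its window, which lies at a start inside its annotated locus.

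All 6 genes fell in the knockout. Their log2 fold changes ran from -1.78 for Spag17 to -0.39 for Spef2, with a median of -0.86, against a median of 0.0029 over the 14243 genes tested. All 6 had enough counts to be tested, all 6 passed the edgeR quasi-likelihood test at an adjusted p-value of 0.05, and in all 6 the knockout libraries lay below the WT libraries with no overlap. Over all tested genes, 26.9% were called in either direction and 14.2% were called lower, and 43.3% had no overlap between the genotypes, 22.1% of all tested genes being lower in that way. Summed over the 6 genes, the level was 563 to 568 CPM in WT and 313 to 357 CPM in the knockout. These are bulk libraries, so fewer ciliated cells and less RNA per ciliated cell cannot be told apart.

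**Figure D2:**
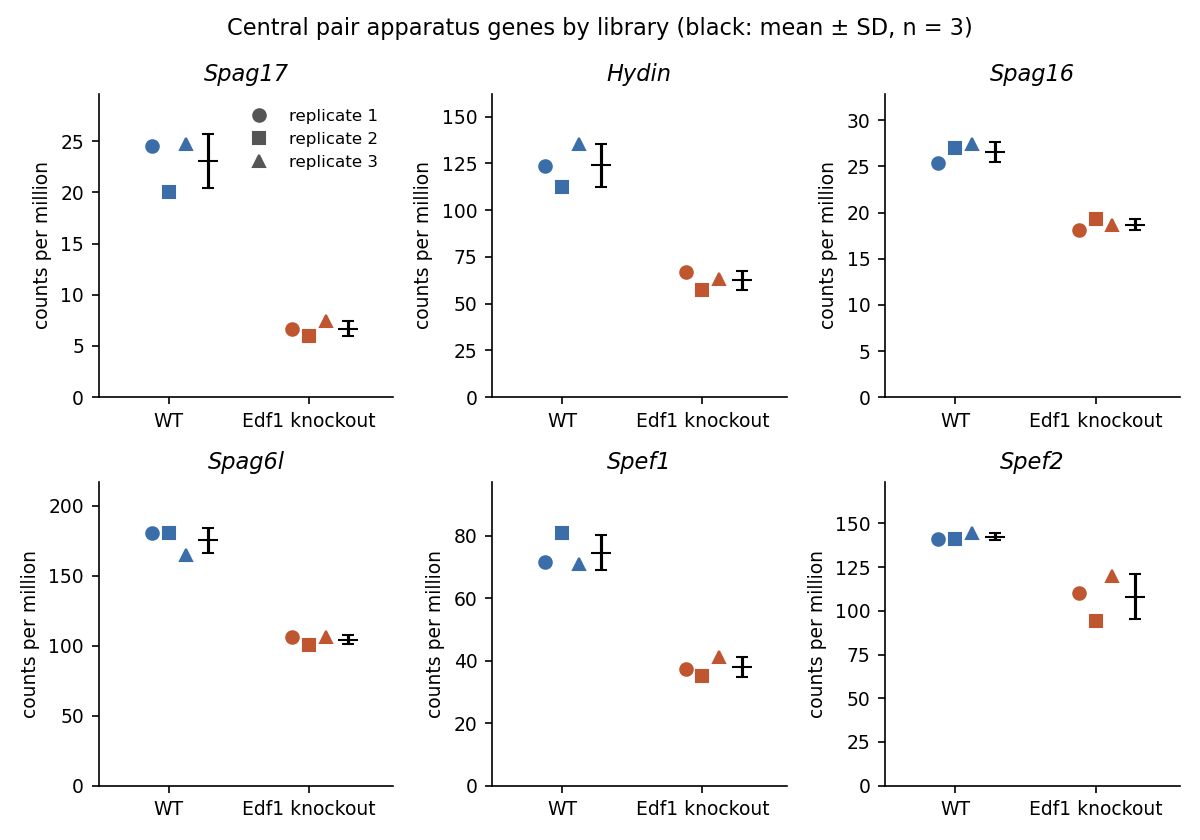
CPM (y axis, from 0) of each central pair gene in the 3 WT (blue) and 3 Edf1 knockout (orange) libraries, with the symbol giving the replicate number and black bars the mean ± SD. In each panel the knockout libraries lie below all WT libraries, with the widest gap relative to the WT level for Spag17 and the narrowest for Spef2.

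Among the genes of the C1 microtubule, Spag6l encodes an armadillo-repeat protein that is the mouse form of PF16, which stabilises that microtubule. The gene lies on the minus strand at chr16:16753016-16829456 (GENCODE M21, GRCm38), and its longest transcript has 11 exons. Spag6l had 180, 181 and 165 CPM in WT and 106, 101 and 106 CPM in the knockout, from 1727 to 4784 counts per library. The WT libraries were all high and the knockout libraries nearly equal to each other. The log2 fold change was -0.75 ± 0.055 SE (edgeR adjusted p-value 1.44e-06), so the knockout mean was 59.5% of WT. Its near copy Spag6, on another chromosome, had 2 to 20 counts per library and was not tested, and 2.08% of the 31-base stretches of Spag6l transcripts also occur in transcripts of other genes.

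Spag17 encodes the large PF6 protein of a C1 projection. It lies on the plus strand at chr3:99885406-100143322, with 49 exons in the longest transcript. Spag17 had 24.5, 20.05 and 24.7 CPM in WT and 6.70, 5.96 and 7.40 CPM in the knockout, from 107 to 651 counts per library. The lowest WT library, replicate 2, was the one with the lowest total count and was still far above every knockout library. The knockout mean was 28.96% of WT (log2 fold change -1.78 ± 0.12 SE; edgeR adjusted p-value 6.16e-07), and 16 of the 14243 tested genes had a lower fold change. Exons of Spag17 overlap those of Wdr3, a gene for ribosome biogenesis on the opposite strand, over 820 bases, which is 9.66% of the exonic bases of Spag17. A further 516 bases overlap an antisense transcript, Spag17os, that has no row in the table. It is not given whether the counting used strand, so reads of the overlap cannot be assigned with certainty. Wdr3 had 43.0, 46.5 and 45.3 CPM in WT and 40.9, 44.2 and 47.7 CPM in the knockout. The genotypes overlapped for Wdr3, and its log2 fold change of -0.013 (SE 0.070) was not called (adjusted p-value 0.913 by edgeR).

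Spef2 encodes a protein of another C1 projection, known as CPC1, and is also needed for the sperm tail. It lies on the minus strand at chr15:9578193-9748868. Spef2 had 141, 141 and 145 CPM in WT and 110, 94.4 and 120 CPM in the knockout. The WT libraries were almost identical, with a coefficient of variation of 1.44%, while the knockout libraries spread by 11.9%. The knockout mean was 76.0% of WT, which is -0.39 ± 0.075 SE on the log2 scale (edgeR adjusted p-value 0.00198). It was the smallest fall of the 6 genes.

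On the C2 microtubule, Hydin encodes a giant protein of a projection, and it is the gene mutated in the hy3 hydrocephalus mouse. It lies on the plus strand at chr8:110266977-110610253, with 87 exons. Hydin had 124, 113 and 135 CPM in WT and 66.7, 57.0 and 63.4 CPM in the knockout. Every knockout library was below every WT library, and WT replicate 2 was again the lowest of its group. The knockout mean was 50.4% of WT (log2 fold change -0.99 ± 0.077 SE; edgeR adjusted p-value 2.14e-06). An antisense transcript overlaps 1.31% of its exonic bases.

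Spag16 encodes the WD-repeat protein PF20, which lies in the bridge between the microtubules of the central pair. It lies on the plus strand at chr1:69826970-70725132, the longest locus of the 6 at 898163 bases. Spag16 had 25.4, 27.0 and 27.4 CPM in WT and 18.1, 19.3 and 18.7 CPM in the knockout. The spread within each genotype was small, at 4.07% and 3.22% of the mean. The knockout mean was 70.3% of WT (log2 fold change -0.50 ± 0.077 SE; edgeR adjusted p-value 0.000371).

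Spef1, also called Clamp, encodes a protein that binds and bundles microtubules and is needed for the central pair to form. It is the smallest of the 6 loci and lies on the minus strand at chr2:131170261-131187282. Spef1 had 71.6, 81.0 and 70.9 CPM in WT and 37.3, 35.0 and 41.2 CPM in the knockout. WT replicate 2 was the highest library here, the reverse of its place for Spag17 and Hydin. The knockout mean was 50.8% of WT (log2 fold change -0.97 ± 0.076 SE; edgeR adjusted p-value 2.25e-06). Spef1 exons overlap genes of the opposite strand over 12.7% of their bases, of which 256 bases lie with the antisense transcript Gm14232 and 92 bases with the cell-cycle phosphatase gene Cdc25b. Cdc25b rose from 8.89 ± 0.84 to 11.6 ± 0.58 CPM (SD, n = 3 each; log2 fold change 0.38; edgeR adjusted p-value 0.0230). That call was lost without knockout replicate 2 (0.36, edgeR adjusted p-value 0.0756) or knockout replicate 3 (0.36, 0.0869). On the same strand, 20 bases of Spef1 exons overlap Cenpb, which was not called (log2 fold change 0.077; edgeR adjusted p-value 0.250).

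Levels of the 6 genes were compared with each other per kilobase of exon, as CPM per kilobase on the union of annotated exons. In WT the order was Spag6l (38.5 ± 1.95), Spef1 (27.1 ± 2.04), Spef2 (14.4 ± 0.21), Hydin (6.86 ± 0.63), Spag16 (3.93 ± 0.16) and Spag17 (2.72 ± 0.31; SD, n = 3 each). The order was the same in the knockout, at 22.9 ± 0.68, 13.8 ± 1.15, 10.9 ± 1.30, 3.46 ± 0.27, 2.76 ± 0.089 and 0.788 ± 0.085 (SD, n = 3 each). No neighbours in that order overlapped between libraries of a genotype on this scale. The gap between Spef1 and Spef2 was much narrower in the knockout than in WT. With the longest transcript as length, Spef2 (15.4) stood above Spef1 (14.6) and Spag16 (5.25) above Hydin (3.95) in the knockout. On that length the ranges of Hydin and Spag16 overlapped in WT, as did those of Spef1 and Spef2 in the knockout.

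The sizes of the falls were then compared between the genes. For each of the 15 pairs the difference of their log2 CPM was taken in every library and compared between genotypes. In 12 of the 15 pairs the 3 WT differences did not overlap the 3 knockout differences. The share of pairs without overlap among all tested genes was not computed, so this count has no background to stand beside. Lack of overlap was common for single genes, at 43.3% of those tested in either direction. The 15 pairs also share their genes and are not independent of each other. The smallest two-sided p-value that an exact permutation test of 3 against 3 libraries can give is 0.1, which becomes 0.125 after Benjamini-Hochberg adjustment over the 15 pairs, so no pair could pass 0.05. The 12 pairs reached that smallest value. All 5 pairs with Spag17 were among them: its log2 ratio in the knockout minus that in WT was -0.78 to Hydin, -0.80 to Spef1, -1.02 to Spag6l, -1.27 to Spag16 and -1.37 to Spef2. For Hydin against Spef1 the difference was -0.011, for Spag16 against Spef2 it was -0.10, and for Hydin against Spag6l it was -0.24. These were the 3 pairs that overlapped, with exact permutation p-values of 1, 0.4 and 0.2.

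Foxj1, the master transcription factor of motile cilia and a marker of the ciliated cells, had 767, 838 and 759 CPM in WT and, in the knockout, 517, 517 and 535 CPM (log2 fold change -0.59 ± 0.049 SE; edgeR adjusted p-value 3.41e-06). The log2 ratio of each central pair gene to Foxj1 was therefore also compared. Relative to Foxj1, Spag17 was lower in the knockout by a log2 difference of -1.18, Hydin by -0.40, Spef1 by -0.39 and Spag6l by -0.16, with no overlap between the genotypes in these 4 genes. Foxj1 itself did not overlap between the genotypes, and the share of all tested genes without overlap in this ratio was not computed. The ratio of Spag16 (0.084) and of Spef2 (0.19) overlapped between the genotypes. The exact permutation p-values were 0.1 for the 4 genes, the smallest possible, and 0.3 for Spag16 and Spef2, or 0.15 and 0.3 after adjustment over the 6 ratios. A ratio to Foxj1 shows unequal change and does not give the number of ciliated cells. It also depends on the marker chosen. Among the multiciliated ependymal markers, Tmem212 (-1.40), Ccdc153 (-1.37) and Dynlrb2 (-0.93) fell more than Foxj1. S100b (-0.65 ± 0.12 SE) lay slightly below Foxj1, and Rarres2 (-0.50 ± 0.069 SE) and Tppp3 (-0.48 ± 0.069 SE) slightly above. Mia had 0.014. These differences from Foxj1 were not tested. Ratios to these markers were not taken.

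**Figure D3:**
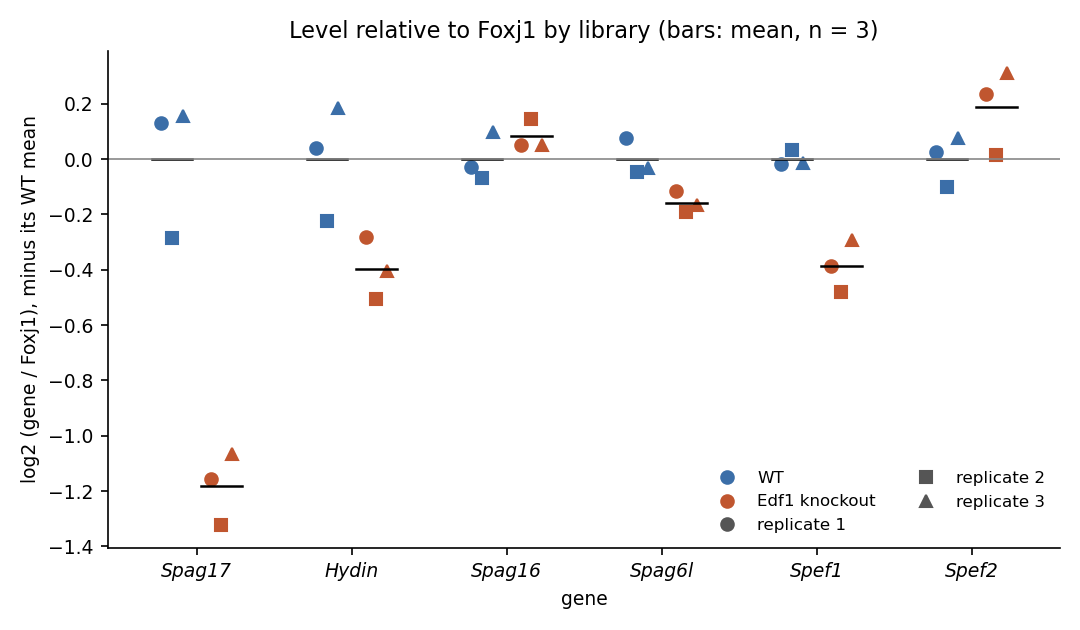
Log2 ratio of each central pair gene to Foxj1 in every library, with the WT mean of the gene set to 0 (y axis), in WT (blue) and Edf1 knockout (orange); symbols give the replicate number and black bars the mean of 3 libraries. Spag17 lies farthest below its WT level, at a mean of -1.18, whereas the Spag16 and Spef2 libraries of both genotypes overlap.

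Genes for the other proteins of the central apparatus had the same direction. This list and those below were chosen with earlier results of these data known, so their counts are a description. Of 14 further genes listed for the projections and the central microtubules, 13 were tested and 13 were called lower, beside 14.2% of all tested genes. Their median log2 fold change was -0.60, against 0.0029 over all tested genes. Cfap221 had the largest fall of these, from 28.1 ± 0.64 to 13.2 ± 1.86 CPM, which is -1.08 ± 0.099 SE on the log2 scale (edgeR adjusted p-value 7.06e-06). The C2 projection gene Cfap65 had -0.95 and the Mycbp partner gene Mycbpap -0.93. Kif9, which encodes a kinesin of the central pair, had -0.56, and the C1 projection genes Cfap54, Cfap46 and Cfap74 had -0.46, -0.38 and -0.60. The smallest fall was that of Cfap69, from 146 ± 5.67 to 126 ± 11.3 CPM (log2 fold change -0.21; edgeR adjusted p-value 0.0384). Cfap69, Cfap47 (-0.27) and Spata17 (-0.34) were the 3 genes whose calls were lost when some single libraries were left out: all 3 when WT replicate 1 or either of knockout replicates 1 and 2 was left out, leaving 10 called, Cfap47 and Cfap69 without WT replicate 3, and Cfap47 without knockout replicate 3.

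Of the 7 genes reported that act in making the central microtubules, 1 was called lower and 0 higher, beside 14.2% and 12.7% of all tested genes. This share called lower is near that of all tested genes and is no result about the list. The median log2 fold change of the 7 was 0.046, against 0.0029 over all tested genes. Spef1 (-0.97), also needed for the central pair to form, was counted with the 6 central pair genes and not here. The hedgehog-related kinase gene Stk36, needed for central pair assembly in mouse cilia, fell from 69.0 ± 0.68 to 56.3 ± 3.33 CPM (log2 fold change -0.29; edgeR adjusted p-value 0.00315). The microtubule-severing gene Katna1 (0.046), the scaffold gene Wdr47 (0.080) and the minus-end binding genes Camsap1 (0.031), Camsap2 (0.16) and Camsap3 (0.24) were not called. Kif27 (-0.15) was not called either. Without WT replicate 2, Kif27 was called at -0.20 (edgeR adjusted p-value 0.00957), and without WT replicate 3, Camsap2 was called at 0.27 (0.0256). Camsap1 was -0.040 without WT replicate 2 and Katna1 was -0.0059 without knockout replicate 3. Whether this list differs from the other central apparatus genes was not tested.

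**Figure D4:**
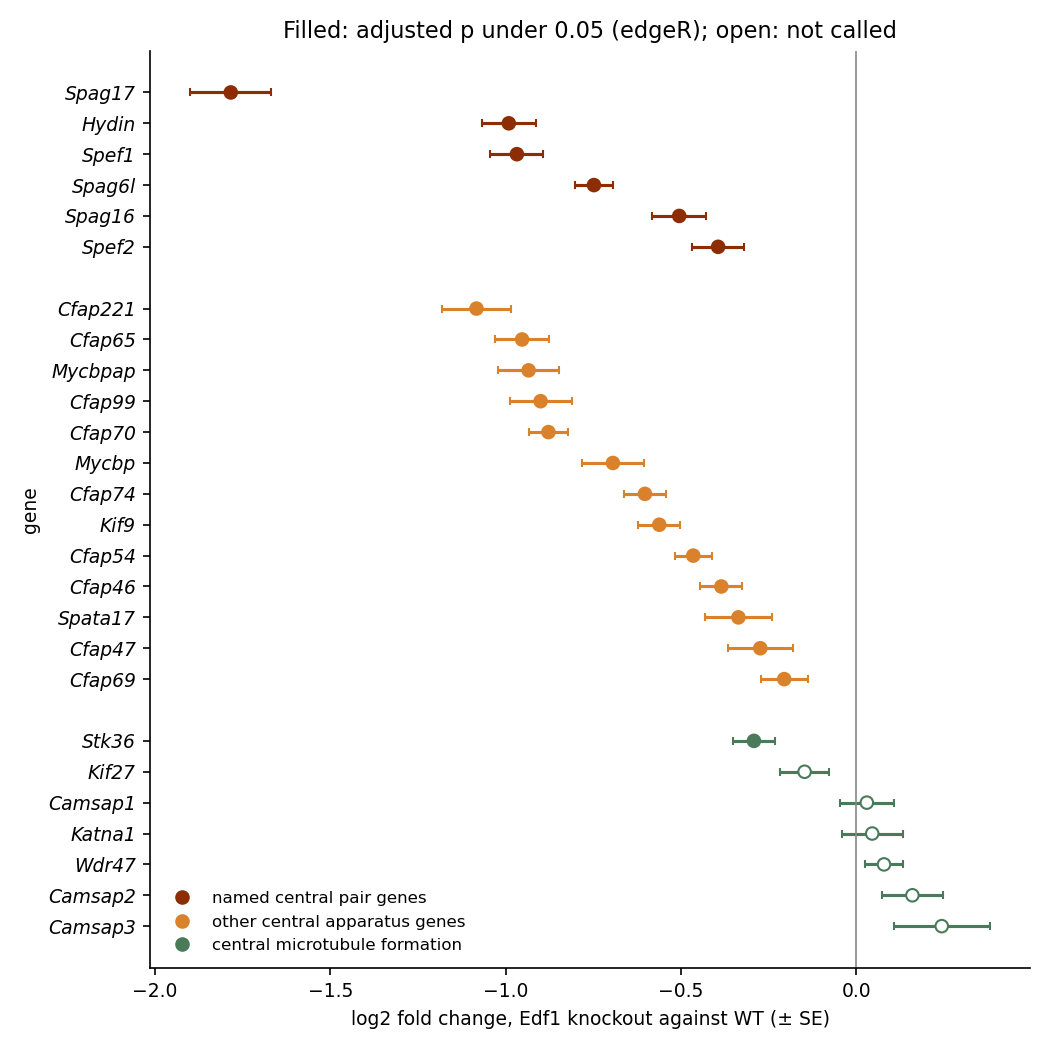
Log2 fold change of Edf1 knockout against WT (x axis, bars ± SE) for the 6 central pair genes, 13 other central apparatus genes and 7 genes for the formation of the central microtubules; filled points passed the edgeR test at an adjusted p-value of 0.05. The first 2 groups lie below 0 throughout, whereas 5 of the 7 formation genes lie above 0 and none of those is called. Spef1, also needed for the central pair to form, is shown in the first group.

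Most genes of the structures that the central pair works with were called lower. Of 9 radial spoke genes tested, 8 were called lower, beside 14.2% of all tested genes (median log2 fold change -0.51), from Rsph14 at -1.30 to Rsph3a at -0.14, which was not called and was 0.021 without knockout replicate 3. Of 14 axonemal dynein heavy chain genes, 11 were called lower, beside the same 14.2% (median log2 fold change -0.56), from Dnah11 at -1.74 to Dnah17 at 0.040, which was not called and was -0.0065 without WT replicate 3 and -0.043 without knockout replicate 2. The medians of both lists lay above that of the 6 central pair genes, and this difference was not tested. Of 8 regulators of the multiciliated programme, 6 were called lower, also beside 14.2% of all tested genes, with Ccno lowest at -1.25, whereas Gmnc (-0.18) and Rfx3 (0.0020) were not called. Among the factors that bind the X-box, Rfx2 had -0.24 (edgeR adjusted p-value 0.0128), a call lost without knockout replicate 2 (-0.23, 0.0557) or knockout replicate 3 (-0.21, 0.0703). Without WT replicate 2, Gmnc was called at -0.22 (edgeR adjusted p-value 0.0195) and Rfx3 was at -0.14, not called.

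For each gene, the tested genes with the most similar profile over the 6 libraries were found by the root mean square distance of log2 CPM after centring, among 12883 genes with a mean log2 CPM of at least 1. Both the change between genotypes and the spread within them enter this distance, and it is given as a description. The nearest to Spag17 was the dynein heavy chain gene Dnah11 (distance 0.078), followed by the microglial receptor gene Gpr34 (0.10) and BC051019 (0.11). Those nearest to Hydin were Ccdc78, Ppfia4 and Stil (0.062 to 0.066). Spef1 was nearest to Ccdc113, Cfap65 and Mycbpap (0.031 to 0.037), of which Cfap65 and Mycbpap are in the central apparatus list. Genes close to Spag6l included Chia1 and the microglial receptor gene Csf1r (both 0.029). Spag16 was nearest to Prkar2b, Galm and Taf9 (0.028 to 0.035), and Spef2 to Pibf1, Rad54b and Ikbke (0.029 to 0.038). Among themselves the 6 genes lay 0.13 to 0.69 apart.

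The total count per library was 13071766 to 28087006, with WT replicate 2 lowest, and that library stood apart on the second principal component, which held 16.1% of the variance. On the first component, which held 60.7%, it lay at -32.5 and the other WT libraries at -18.1, with the knockout libraries at 20.5 to 24.3. The counts of markers called stand beside 14.2% of all tested genes called lower and 12.7% called higher. The markers of multiciliated ependymal cells were present in every group and followed the same direction: 7 of 8 were called lower, and their sum was 1511 to 1761 CPM in WT and 1018 to 1043 CPM in the knockout, with Mia not called (0.014) and none at 0. Radial glia and astrocyte markers had 1 of 8 called lower, Gfap (-0.42), and 2 higher, Nes (0.40) and Fabp7 (0.20). This count is near the share over all tested genes, 26.9% in either direction. The sums, 9759 to 10282 CPM in WT and 10672 to 11070 CPM in the knockout, did not overlap. Markers of other cells moved with genotype too. Of 10 microglial markers, 9 were called lower, with sums of 1816 to 1958 CPM in WT and 1178 to 1202 CPM in the knockout and none at 0. All 7 tested fibroblast and mural markers were higher, with sums of 564 to 605 and 726 to 812 CPM. Of the pituitary markers, all 3 tested were higher, with sums of 3.28 to 4.27 and 22.8 to 29.5 CPM, and Prl and Gh had 0 counts in each WT library. Choroid plexus markers (1 of 5 higher, near the share over all tested genes, sums of 106 to 133 and 119 to 141 CPM), neuronal markers (2 of 5 lower, 40.7 to 43.4 and 36.1 to 39.3 CPM) and oligodendrocyte markers (0 of 5 called by edgeR, 111 to 121 and 119 to 131 CPM) made up the rest, with none at 0 in all libraries. The part of these cells in the fall of the central pair genes was not tested.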

How the data were processed

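Counts were analysed as deposited. The authors' table holds whole-number read counts per gene symbol, with a column for each library and no pooling. FastQC 0.11.2, cutadapt 1.11, HISAT2 2.1.0 and the build GRCm38 are named in the submitters' processing notes. The counting program, annotation and strand setting are not given in the sources used here, and the kit was MGIEasy mRNA after TRIzol extraction, per the labels' protocols. There were 0 rows without a gene name and 0 columns left unused.

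In R 4.3.3, filterByExpr of edgeR 4.0.16 kept 14243 of 22851 genes. TMM factors were 0.985 to 1.01. Edf1 knockout was compared with WT on all 6 libraries by edgeR's quasi-likelihood test and p-values were adjusted by Benjamini-Hochberg across the tested genes, with 0.05 as threshold. SE is the absolute log2 fold change over the root of the quasi-likelihood F. CPM uses TMM-scaled totals, and log2 CPM a prior count of 2. Exon lengths, overlaps and 31-mers came from GENCODE M21, and promoter windows from RefSeq. Alternatives were DESeq2 1.42.0, limma 3.58.1 (voom), other scalings, filters and thresholds, a replicate block and each library left out. On simulated counts for the 14243 genes, with 200 of them changed 2-fold, 92% were recovered and 10.2% of calls were false. That false share is above the threshold of 0.05, and it belongs to a setting with far fewer changed genes than the 26.9% called in the data. Libraries of a genotype differed by more than counting noise (chi-square per degree of freedom 3.03 to 10.0), and none was treated as a duplicate. This check cannot tell separate animals from separate preparations of the same cells. The edgeR p-values set the genotype difference against the spread between libraries within a genotype, and the number of animals behind each library is not known.

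The genes, the lists (other central apparatus, central microtubule formation, radial spoke, dynein heavy chain, regulators, cell type markers) and the motifs were chosen with earlier results of these data known. Named genes are the 6 genes, Edf1, Foxj1, Spag6, genes whose exons overlap a member, the extremes of each list and the 3 nearest profiles of each gene. Other genes of the lists were named after their values were seen. A single gene of the formation list and a close profile of Spag6l are not reported here.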

Additional observations from a re-analysis of the deposited data

How the results depend on the processing

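All 6 central pair genes remained called lower in each of the 14 alternatives, with log2 fold changes of -1.88 to -1.71 for Spag17, -1.05 to -0.92 for Hydin, -1.04 to -0.91 for Spef1, -0.79 to -0.72 for Spag6l, -0.54 to -0.48 for Spag16 and -0.47 to -0.31 for Spef2. The largest adjusted p-value among them was 0.0114, for Spef2. Leaving out single libraries gave 12 or 13 pairs without overlap. Other central apparatus genes called lower were 10 to 13 over the alternatives, with Cfap47 lost in 8 of the 14, Cfap69 in 6 and Spata17 in 4. The count of changed genes was 3833, or 2213 at a threshold of 0.01. Leaving out single libraries gave 2658 (without knockout replicate 1) to 4340 (without WT replicate 2), so the share of all tested genes called depends on the libraries used. Wdr3 changed sign around 0: it was 0.00017 with library size alone and ran from -0.072 to 0.038 when single libraries were left out. Genes near 0 also changed sign when single libraries were left out: Camsap1 ran from -0.040 to 0.092, Katna1 from -0.0059 to 0.13, Rsph3a from -0.31 to 0.021, Dnah17 from -0.043 to 0.11 and Rfx3 from -0.14 to 0.15, none of them called; the cause was not tested.

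For the ratios to Foxj1, leaving out each library and a prior count of 0.5 were alternatives chosen after seeing the data, and no ratio changed sign: the difference ran from -1.33 to -1.10 for Spag17, -0.51 to -0.31 for Hydin, -0.43 to -0.34 for Spef1, -0.18 to -0.12 for Spag6l, 0.049 to 0.13 for Spag16 and 0.13 to 0.27 for Spef2. With the longest transcript as length, levels per kilobase in WT and the knockout were 7.85 and 3.95 for Hydin, 7.47 and 5.25 for Spag16, 72.6 and 43.2 for Spag6l, and 20.2 and 15.4 for Spef2. These 4 genes have many exonic bases outside that transcript. With the replicate block, 4065 genes were called, including 3683 of the 3833; it kept 6 of the 6 central pair genes and 13 of the 13 other central apparatus genes called lower, and changed no call of Wdr3, Foxj1 or Edf1. Same-numbered libraries deviated together with correlations of only 0.069, 0.060 and 0.037, so no pairing was assumed. Spag17 rests on 107 to 209 counts per knockout library, the lowest depth of the 6 genes.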
